A study of Mus musculus with 2 samples.

Results

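The genes described here encode the mitochondrial ribosome, the respiratory chain with its assembly factors, coenzyme Q synthesis and the protein import machinery. They were measured in DC1940, a line of CD8α+ dendritic cells of the C57BL/6 mouse strain. Such cells excel at presenting captured antigen to killer T cells. The cells were wild type, had received an empty vector and had been stimulated through TLR3, a receptor for double-stranded RNA, with its agonist pIC. Poly(A) RNA of 2 libraries, the only group, was sequenced, and the deposited table gives 1 pooled level per gene in FPKM (fragments mapped to a gene, scaled to transcript length and to the fragments mapped in all). How long the cells were stimulated is not stated for these libraries. Of 4898 rows in the table, 54 were members, chosen by gene symbols that start with Mrpl or Mrps and a digit, Nduf, Cox and a digit, Atp5, Uqcr, Sdha to Sdhd, Timm, Tomm, or Coq and a digit.

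The submitters name the table as the genes that differ between unstimulated and stimulated cells. Neither the direction of those differences nor their size was analysed here, and each value below is a level after pIC, not a change. With 1 pooled value per gene, no value has an SD and no difference between genes could be set against replicate spread. Library depth is unknown, and in bulk RNA a lower level can stem from fewer cells or from less RNA per cell, which cannot be told apart. Of 10 markers of CD8α+ dendritic cells, 9 had a row, from 5.62 FPKM for Flt3 to 387 for Xcr1. None of 3 T cell and 3 B cell markers had a row used here, while 3 of 4 macrophage markers lay between 0.460 and 5.404 FPKM. Because the rows are genes named as differing, a marker without a row may still be expressed. Of 4 plasmacytoid dendritic cell markers 2 had a row, Tcf4 at 5.41 FPKM and Bst2, which interferon also induces in other cells, at 602.

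Mitochondria make ATP by passing electrons through complexes I to IV and letting the proton gradient drive the ATP synthase. Most subunits are encoded in the nucleus, made in the cytosol and imported through the TOM and TIM translocases, and a small set is encoded in mitochondrial DNA and translated by the mitoribosome. Activated dendritic cells are known to shift their energy supply towards glycolysis. The nuclear genes of this system are known to carry binding sites for NRF1, for ETS factors such as GABPA and for YY1 near their starts.

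Motifs of these factors were searched in the promoters of the members, and the sites found are shown because the symbol rule did not use them. RefSeq promoter sequences (GRCm38.p6, 250 bases before to 50 after each start) were found for 50 of the 54 members, 55 promoters in all. Each site is printed 5′ to 3′ on the strand that reads the motif, with 10 flanking bases where the window allows and the motif in capitals. The NRF1 core searched was GCATGCGC, on both strands, and 7 member genes held it.

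The sites with the NRF1 core were these, with 2 in the promoter of Ndufaf4.
Atp5k (chr5:108434430-108434457, - strand): tcactgcggcGCATGCGCctttctggct
Coq2 (chr5:100674288-100674315, + strand): ccgcgggcagGCATGCGCagtggtggcg
Mrpl39 (chr16:84735350-84735377, - strand): ggagaggcgcGCATGCGCccccgcgtgg
Ndufa6 (chr15:82354357-82354384, - strand): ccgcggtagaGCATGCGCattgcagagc
Ndufa8 (chr2:36049329-36049356, - strand): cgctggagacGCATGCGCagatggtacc
Ndufaf4 (chr4:24897962-24897989, + strand): agatgtctgcGCATGCGCctgtgcggaa
Ndufaf4 (chr4:24898074-24898101, - strand): tacgcacggaGCATGCGCacaccagggg
Uqcr11 (chr10:80406808-80406835, - strand): tcgccttcacGCATGCGCtatacgtctg

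The ETS core searched was CCGGAAGT, on both strands, and 8 member genes held it.
Cox15 (chr19:43752976-43753003, - strand): gacgcctgacCCGGAAGTgcttgttctt
Mrpl18 (chr17:12916314-12916341, - strand): actgaaaacgCCGGAAGTagggggctgc
Mrpl51 (chr6:125192100-125192127, + strand): aggggctaaaCCGGAAGTatttgactgg
Mrps26 (chr2:130563732-130563759, - strand): tgcgcccggcCCGGAAGTggccgcggag
Timm10b (chr7:105640470-105640494, - strand): agtcgccCCGGAAGTaaactctcac
Tomm70a (chr16:57121624-57121651, + strand): ccttctgaccCCGGAAGTggttctcccc
Uqcr11 (chr10:80406870-80406897, - strand): tctctcctccCCGGAAGTagatgtcaat
Uqcrh (chr4:116075064-116075091, + strand): ggcgacctggCCGGAAGTgcggcatact

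The YY1 core searched was AAGATGGC, on both strands, and 5 member genes held it.
Mrpl42 (chr10:95501905-95501932, - strand): agattgaagcAAGATGGCgagcgcgcgg
Mrps24 (chr11:5707652-5707675, - strand): gcgccggcccAAGATGGCgtggtc
Mrps7 (chr11:115604148-115604175, + strand): gacagcggccAAGATGGCtgcccccgcg
Ndufa3 (chr7:3617385-3617412, + strand): cgccaagaacAAGATGGCcgggagtaag
Ndufb8 (chr19:44555393-44555414, - strand): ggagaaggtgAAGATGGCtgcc

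Uqcr11, a small subunit of complex III, was the only member whose promoter held both the NRF1 and the ETS core, and its whole window is shown with both in capitals (chr10:80406772-80407071, - strand). Its transcript stood at 142 FPKM.
Uqcr11: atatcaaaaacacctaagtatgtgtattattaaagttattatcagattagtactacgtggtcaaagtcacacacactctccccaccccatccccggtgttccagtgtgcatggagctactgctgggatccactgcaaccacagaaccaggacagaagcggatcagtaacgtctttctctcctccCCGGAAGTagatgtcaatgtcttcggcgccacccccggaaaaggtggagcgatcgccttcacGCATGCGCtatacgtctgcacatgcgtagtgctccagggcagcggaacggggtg

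In all, 21 sites of the NRF1, ETS and YY1 cores were found in 19 promoters, and 18 of the sites began within 100 bases of the start. All 5 YY1 cores lay on the gene strand after the start, with their first base between positions 19 and 39. In 4 of them, those of Mrps24, Mrps7, Ndufa3 and Ndufb8, the letters ATG inside the motif are the annotated start codon in GENCODE M21. The NRF1 core was in 12.7% of the 55 member promoters, against 3.52% of 21263 promoters of all protein-coding genes. The ETS core was in 14.5% against 5.15%, and the YY1 core in 9.09% against 3.05%. At least 1 of the 3 was in 34.5% of member promoters, 13.3% of the promoters of protein-coding genes with a row, and 11.0% of those of all protein-coding genes. Among family genes without a row the share was 34.9% of 152 promoters. A match of letters is a description and shows no binding. An interferon element core, GAAANNGAA on both strands, was in 7.27% of member promoters and 8.15% of those of all protein-coding genes. It was found in Cox15, Ndufb8, Timm9 and Tomm70a at positions -135, -198, -170 and -119 from the start. The 150-base window that ends 50 bases after the start therefore held none of them. The 19 members with at least 1 of the 3 cores had a median of 55.5 FPKM and the 31 without one 26.04 FPKM. Roles are mixed in this contrast. Among respiratory subunits 7 genes with a core had a median of 142 FPKM and 9 without one 66.5. Among mitoribosomal genes 7 with a core had 49.8 FPKM and 10 without one 25.6. Only 2 assembly, 1 coenzyme Q and 2 import genes held a core. Whether a core goes with a higher level was not tested.

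**Figure D1:**
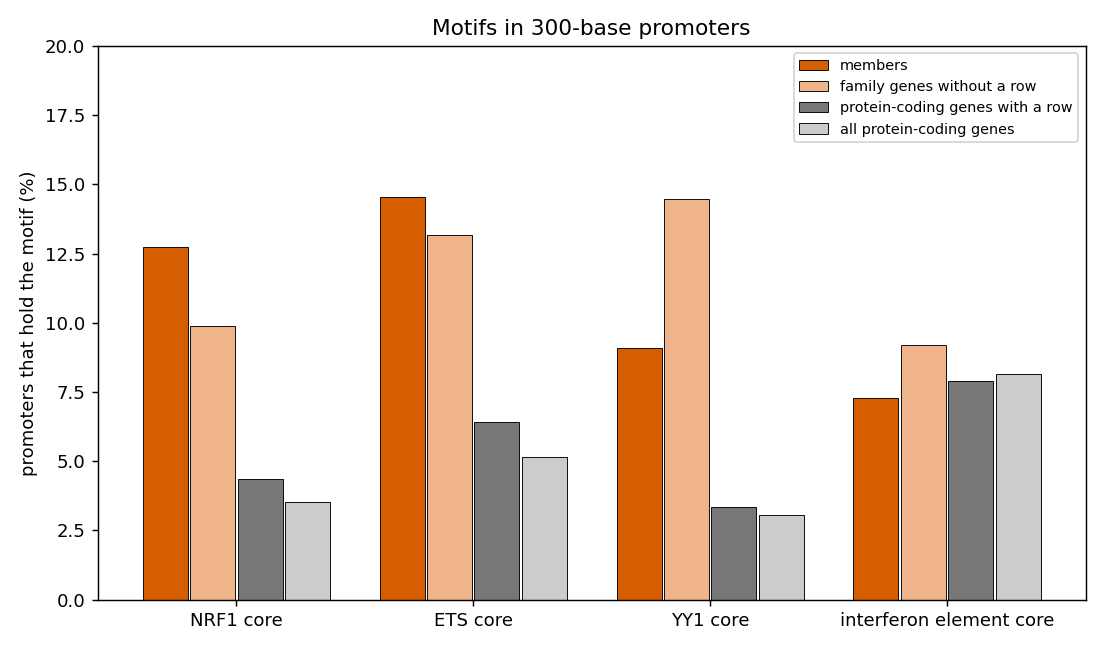
Percentage of 300-base RefSeq promoters (y axis) that hold each motif core (x axis), for members, family genes without a row, protein-coding genes with a row and all protein-coding genes. NRF1, ETS and YY1 cores are more frequent in both mitochondrial groups than among all genes, for example 12.7% of member promoters against 3.52% for NRF1, while the interferon element core lies between 7.27% and 9.21% in all 4 groups.

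The members were listed about as often as genes in general. RefSeq holds 224 protein-coding genes whose symbols follow the rule, and 54 of them (24.1%) had a row, against 21.1% of 21900 protein-coding genes. This share is near the background. Which genes the authors tested is unknown, and genes they left untested count here as having no row. By role, 18 of 78 mitoribosomal genes (23.1%), 17 of 87 respiratory subunit genes (19.5%), 9 of 23 assembly factor genes (39.1%), 3 of 11 coenzyme Q genes (27.3%) and 7 of 25 import genes (28.0%) had a row. The respiratory complexes differed among themselves in these counts. Grouped by symbol, complex I, the NADH dehydrogenase, had 13 of 41 subunit genes listed, complex III 2 of 8 and the ATP synthase 2 of 17. The 41 include Ndufa4, Ndufa4l2, Ndufb4b and Ndufb4c, which had no row used here. Whether each gene's protein is part of the complex its symbol names was not checked. None of the 4 subunit genes of complex II, the succinate dehydrogenase, and none of the 17 of complex IV, the cytochrome c oxidase, had a row used here. The 17 include tissue-restricted forms such as Cox6a2, Cox7a1 and Cox8b of heart and muscle. For these 2 complexes only assembly factors were listed. The rows also held no transcript of the mitochondrial genome, and 0 rows lay on the mitochondrial chromosome. Whether the authors' annotation held such transcripts was not stated, so their absence is not a result about the cells.

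**Figure D2:**
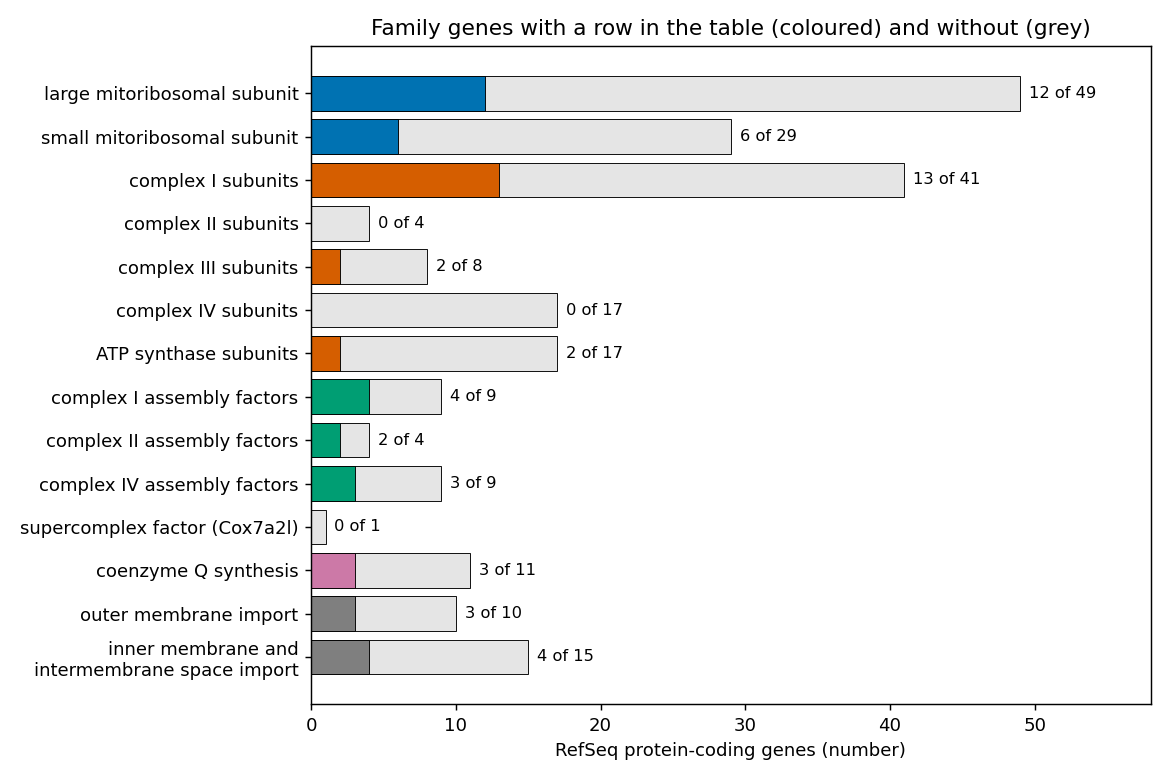
Number of RefSeq protein-coding genes in each role (x axis), with the genes that have a row in the table coloured and the others in grey. Grouped by symbol, complex I has 13 of 41 genes listed (31.7%), while complexes II and IV have 0 of 4 and 0 of 17 subunit genes. Of all protein-coding genes 21.1% have a row, and no difference between complexes was tested.

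The levels of the 54 members ran from 1.15 to 779.7 FPKM, with a median of 30.4 and quartiles of 15.8 and 73.6. The median of all rows was 9.68 FPKM, and 45 of the 54 members (83.3%) lay above it. Of the members, 9 (16.7%) stood at 100 FPKM or more, against 9.60% of all rows, and 6 (11.1%) lay under 5 FPKM, against 38.3% of all rows. Respiratory subunits were the highest role, with a median of 94.5 FPKM, followed by the mitoribosome at 27.3, assembly factors at 16.8, coenzyme Q genes at 16.2 and import genes at 13.9. The ranges of the last 4 overlapped widely. Those of the mitoribosome, assembly factors and import genes also overlapped that of the respiratory subunits, whose lowest gene had 35.1 FPKM. The highest coenzyme Q gene, at 24.6 FPKM, lay below it. Without the 12 rows whose intervals overlap another protein-coding gene, the median of assembly factors was 5.70 FPKM and that of import genes 24.9, so the order of these groups rests on such rows. All 54 symbols matched the RefSeq gene of the row's accessions, and no row carried accessions of a second gene.

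**Figure D3:**
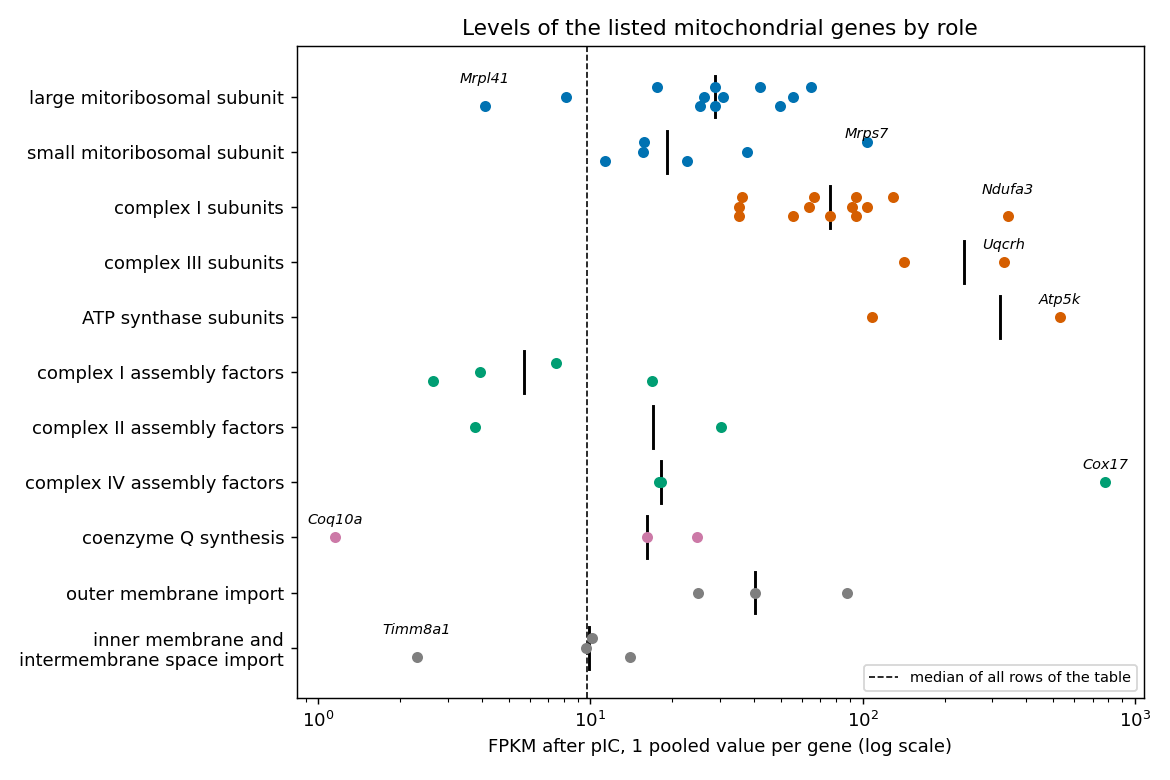
Pooled FPKM after pIC (x axis, log scale) of each listed gene (points) by role (y axis), with the median of each role as a short line and the median of all rows, 9.68 FPKM, dashed. All respiratory subunits stand at 35.1 FPKM or more, while the complex I assembly factors lie between 2.63 and 16.8 FPKM and Cox17 at 779.7.

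By symbol, the mitoribosome was represented by 12 of 49 genes of the large subunit and 6 of 29 of the small subunit. The large subunit joins amino acids and the small subunit reads the messenger RNA. The subunit of each protein was taken from its symbol and not checked further. Large subunit genes had a median of 28.7 FPKM and a range from 4.09 to 64.4. Mrpl18 was the highest at 64.4 FPKM (mm10, chromosome 17, 12911355 to 12916091), in an interval that also overlapped the chaperonin gene Tcp1. Mrpl42 followed at 55.5 FPKM and Mrpl39 at 49.8 FPKM. Mrpl12, whose protein forms the stalk that recruits translation factors and also binds the mitochondrial RNA polymerase, had 41.8 FPKM.

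Most of the other large subunit genes lay close together. Mrpl51 had 30.8 FPKM, and Mrpl34 and Mrpl28 had 28.71 and 28.66 FPKM. Mrpl45, whose protein lies at the peptide exit facing the inner membrane, had 26.04 FPKM, Mrpl2, near the site of peptide bond formation, 25.2 and Mrpl16 17.5. Below the table's median were Mrpl57 at 8.10 FPKM and Mrpl41 at 4.09. The interval of Mrpl41 was 12677 bases long for a gene of 982 and overlapped Dph7, so its value is uncertain.

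Small subunit genes had a median of 19.2 FPKM and a range from 11.3 to 104. Mrps7, whose protein sits in the head of the subunit and contacts the transfer RNA, stood apart at 104 FPKM (mm10, chromosome 11, 115604151 to 115607624). Mrps16 had 37.7 FPKM and Mrps36 22.6. Mrps36 encodes a protein since assigned to the 2-oxoglutarate dehydrogenase complex rather than to the ribosome. By its symbol, Mrps36 still counts among the small subunit genes here and in their median. The remaining genes of the small subunit were Mrps26 at 15.7 FPKM, Mrps24 at 15.6 and Mrps35 at 11.3.

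Complex I, which takes electrons from NADH, had 13 listed subunit genes with a median of 76.0 FPKM and a range from 35.1 to 341. Accessory subunits of the B series, in the membrane arm, made up 7 of the 13, out of 13 B-series genes in RefSeq. Of 15 genes of the A series 3 were listed, and of the 7 nuclear genes for the catalytic core 2. Series were taken from the start of the symbol, so the 15 include Ndufab1, Ndufa4 and Ndufa4l2. The B series share was 53.8% and that of the core 28.6%, against 21.1% of all protein-coding genes. The A series share lay just below that background. These classes are small, and no difference between them was tested. Ndufa3, a small membrane arm subunit, was the highest at 341 FPKM (mm10, chromosome 7, 3617373 to 3620161). Ndufb8 had 129.7 FPKM, in an interval that overlapped the predicted gene Gm20538. Ndufb11, whose row spans 35580 bases and overlaps Rbm10, had 104 FPKM.

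Below these, 6 subunit genes fell between 63.4 and 94.5 FPKM. Ndufc2 and Ndufb9 were equal to 3 digits at 94.5 FPKM each, Ndufb10 had 91.2, Ndufa6 76.0 and Ndufb2 66.5. The intervals of Ndufb9 and Ndufb2 overlapped the predicted genes Gm49356 and Gm42420. Ndufs8, a core subunit that carries iron-sulfur clusters, had 63.4 FPKM. Ndufb4 had 55.7 FPKM, and RefSeq holds 2 coding genes named as its copies, Ndufb4b and Ndufb4c, so shared reads make this value uncertain. The lowest were Ndufv2, a core subunit of the NADH-oxidising module, at 35.9 FPKM, Ndufb5 at 35.3 and Ndufa8 at 35.1. The interval of Ndufb5 overlapped Mrpl47, a gene without a row of its own.

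Complex III passes electrons from coenzyme Q to cytochrome c. Uqcrh, the hinge subunit that contacts cytochrome c1, had 329 FPKM (mm10, chromosome 4, 116066965 to 116075070), above Uqcr11 at 142. Of the ATP synthase, Atp5k, the e subunit that helps join synthases into dimers, had 531 FPKM (mm10, chromosome 5, 108433253 to 108434378). Atp5c1, the γ subunit of the rotor, had 108 FPKM. RefSeq names 4 pseudogenes of Atp5k, 2 of Uqcrh, 3 of Mrps36 and 1 of Atp5c1. Reads shared with these copies were not measured, so the levels of these 4 genes are uncertain.

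Assembly factors build the complexes without being part of the finished enzymes. Cox17, which carries copper to cytochrome c oxidase, was the highest of all 54 members at 779.7 FPKM and the 32nd highest of the 4898 rows (mm10, chromosome 16, 38346999 to 38352763). Its interval also overlapped the predicted gene Gm21987. The other 2 complex IV factors were level with each other, Cox15, which makes the heme A group, at 18.2 FPKM and Cox18, which inserts a core subunit into the membrane, at 17.9. The interval of Cox15 covered 63312 bases and overlapped Cutc and Entpd7, so its level is uncertain.

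Factors for complex I were low beside its listed subunit genes, and all but Ndufaf2 lay below the table's median of 9.68 FPKM. Ndufaf2, a late-acting factor, had 16.8 FPKM, and Ndufaf3, which acts with Ndufaf4 in an early module, 7.49. Ndufaf7, a methyltransferase that modifies a core subunit, had 3.92 FPKM and Ndufaf4 2.63. Each of these 4 lay below every listed complex I subunit gene. For complex II, Sdhaf1, which helps insert iron-sulfur clusters, had 30.1 FPKM in an interval shared with E130208F15Rik, and Sdhaf4, which helps mature the flavin subunit, 3.77 FPKM. Of the 9 factors, Cox17 lay above the highest listed respiratory subunit gene, Atp5k at 531 FPKM, and the other 8 lay below the lowest, Ndufa8 at 35.1.

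Coenzyme Q is the lipid that shuttles electrons to complex III. Coq10b and Coq10a encode related proteins that bind it, and their levels were far apart, at 24.6 and 1.15 FPKM, the latter being the lowest of all members. Coq2, which attaches the lipid tail to the ring, had 16.2 FPKM.

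Import genes were led by the outer membrane. Tomm70a, a receptor for carrier proteins that is also known as a partner of the antiviral adaptor MAVS, had 87.8 FPKM (mm10, chromosome 16, 57121714 to 57154530). Tomm5, a small subunit of the pore, had 40.1 FPKM and Tomm20, the receptor for presequences, 24.9. Each of these 3 was above the 4 listed TIM genes. Those were Timm10b at 13.9 FPKM, Timm9 at 10.1 and Timm8a1 at 2.30, chaperones or relatives of the small TIM family, and Timm17b, a subunit of the presequence translocase, at 9.64. The interval of Timm9 overlapped Tomm20l, and that of Timm10b the predicted gene Gm45799.

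Protein length was compared with level after the values had been seen. The 5 highest members, Cox17, Atp5k, Ndufa3, Uqcrh and Uqcr11, encode 63, 71, 84, 89 and 56 residues. All 5 were among the 10 members with 100 residues or fewer, whose median was 91.1 FPKM against 29.4 FPKM for the other 44. The other 5 short members spread from 2.30 FPKM for Timm8a1 to 40.1 for Tomm5, so that this median falls in a gap between 40.1 and 142 FPKM. Mrpl34, Timm10b, Timm9 and Timm8a1 lay below the median of the longer members. Across the 54 genes Spearman's rho of protein length and FPKM was -0.21, and across 4796 rows with a length -0.08. Genes are not independent replicates, and all of them share the same libraries. Among the same 4796 rows, which are not all 4898 of the table, the 75 with such short proteins had a median of 22.0 FPKM and the 4721 others 9.81. FPKM divides by transcript length, so errors in that length weigh most on short transcripts, and their part in these levels was not tested.

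**Figure D4:**
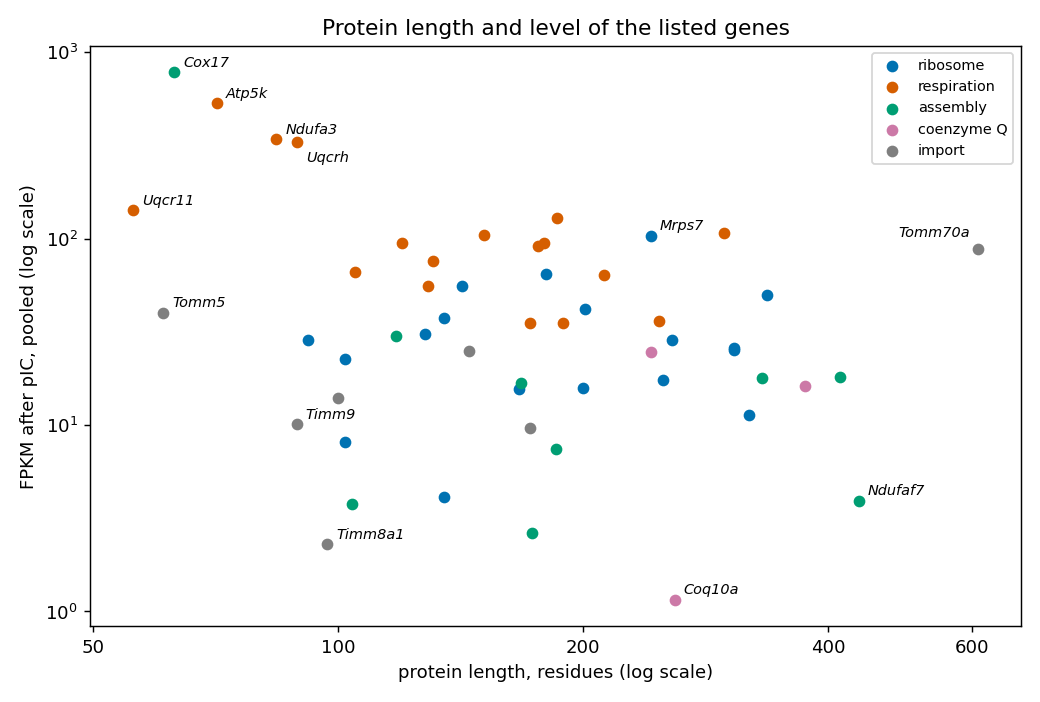
Protein length in residues (x axis, log scale) and pooled FPKM after pIC (y axis, log scale) of the 54 listed genes, coloured by role. The 5 highest genes all encode 89 residues or fewer, while Timm8a1, with 97 residues, stands at 2.30 FPKM.

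Many members shared their start region with a gene on the other strand. In GENCODE M21, 12 of the 54 members (22.2%) had a protein-coding gene that starts within 1000 bases and runs the opposite way, against 6.79% of 21951 protein-coding genes. The share was 20.5% of 166 family genes without a row and 9.64% of 4677 protein-coding genes with one. Of the 12 partners, 6 had a row, against 21.1% of all protein-coding genes in RefSeq. With so few partners this share is uncertain, and it was not tested. Lrrc41, beside Uqcrh, had 58.5 FPKM, Pqbp1, beside Timm17b, 21.3 and Ncapd2, beside Mrpl51, 19.4. Ska3, beside Mrpl57, had 5.87 FPKM, Klc4, beside Mrpl2, 0.634 and Pnpla7, beside Mrpl41, 0.438. In each of these 6 pairs except Timm17b with Pqbp1, the mitochondrial gene had the higher level. Whether strand was kept in the libraries was not stated, and reads shared within pairs were not measured.

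Genes that act with these families, most of them under other names, were taken from 10 further lists. Of their 194 genes 57 had a row (29.4%), against 21.1% of all protein-coding genes, with a median of 15.6 FPKM. List genes were also matched through synonyms, while the 21.1% rests on current symbols only. Matched by accession, that background was 22.2%. The share ran from 0 of 15 transcripts of the mitochondrial genome to 42.9% of the genes for fusion, fission and cristae. No difference in share was tested, and whether the mitochondrial transcripts could have a row is unknown. The lists repeat Mrpl58, Coq8a and Coq8b of the families above, which had no row used here. Among mitoribosome subunits and maturation factors 11 of 26 were listed, led by the small subunit genes Chchd1 and Aurkaip1 at 69.1 and 34.6 FPKM and the methyltransferase gene Nsun4 at 13.3. Mpv17l2 followed at 10.3 and the pseudouridine synthase gene Rpusd4 at 9.77 FPKM. Of 16 mitochondrial translation factors only Tsfm, an elongation factor gene, was listed, at 16.7 FPKM.

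Respiratory assembly factors with other names had 11 of 32 genes listed. The highest were Uqcc2 of complex III at 76.6 FPKM, Higd2a at 72.6, Tmem70 of the ATP synthase at 57.2, Cmc2 at 44.7 and the copper chaperone gene Sco1 at 17.4. Of 13 genes for other electron carriers and coenzyme Q precursors, among them Pdss1, Pdss2, Coq8a and Coq8b, 5 were listed. Etfb had 64.0 FPKM, the glycerol phosphate dehydrogenase gene Gpd2 56.3, Aifm1 10.5, Etfdh 5.86 and the pyrimidine synthesis gene Dhodh 2.70. Import and quality control genes had 7 of 32 listed, among them Romo1 at 96.3 FPKM, prohibitin (Phb) at 21.3, the peptidase gene Immp1l at 17.3, the oxidase gene Gfer at 16.1 and the protease gene Clpp at 15.6.

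In the tricarboxylic acid cycle list 6 of 18 genes were listed. Irg1, which makes itaconate from a cycle intermediate in activated myeloid cells, had 313 FPKM, far above Idh3g at 41.8, Fh1 at 29.97, Idh3a at 8.64 and Idh2 at 6.21. Of 14 genes for fusion, fission and cristae 6 were listed, with Immt at 58.5 FPKM, Chchd3 at 38.3, the fission gene Dnm1l at 32.5, Apool at 22.9 and Apoo, in a row with accessions of 2 genes, at 8.03. Regulators of mitochondrial biogenesis had 5 of 13 listed, Nfe2l2 at 36.9 FPKM, Sirt1 at 36.2, Myc at 35.0, the GABP subunit gene Gabpb1 at 25.7 and Tfeb at 2.38. Genes for mitochondrial DNA upkeep and transcription had 6 of 17 listed with the lowest median of the lists, 2.34 FPKM. They were led by the RNA-processing genes Elac2 and Hsd17b10 at 27.2 and 18.7 FPKM, then the polymerase gene Polg at 2.58, Rnmtl1 at 2.10002 and Top1mt at 1.79.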

How the data were processed

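Poly(A) RNA of 2 libraries of 1 group was sequenced, per the labels' protocols. Cufflinks 2.2.1, TopHat2 2.1.0, FastQC 0.11.5 and the build mm10 are named in the submitters' processing notes. The deposited values are FPKM computed by the authors, 1 per gene for the pIC condition, per the file headers. How the libraries were pooled, and the threshold behind the list, were not stated. There were 0 columns of other samples, and 1 row was not used here.

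Members, roles, lists and motifs were chosen with earlier results of these data known. Every member is named, and of each further list up to the 5 highest genes. Levels were described by value, median and rank, with no test, since 1 pooled value allows none. Symbols and accessions were matched to RefSeq of GRCm38.p6 (7961 of 8008 accessions), and intervals, start codons and protein lengths (longest coding sequence per row) to GENCODE M21. Starts were raised by 1 base. The motif search was tested on simulated sequences. Head-to-head pairs and protein lengths were chosen after seeing the values. Without a known depth, intervals and detection limits could not be computed. The tools were matplotlib 3.10.9, SciPy 1.17.1, numpy 2.4.6, pandas 2.3.3 and Python 3.11.15.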

Additional observations from a re-analysis of the deposited data

How the results depend on the processing

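No paired analysis was possible because the table pools both libraries of its only group. Pseudocounts, leaving out a library and a replicate block need values not used here and were not run. Of 65 values under alternative settings, 61 stayed within 1.5 times the reported one (for motif shares, within its 95% exact binomial interval) and 4 did not. Part of the 61 could not move. No member lay under 1 FPKM and no member row carried accessions of a second gene. Settings that drop such rows therefore repeat the reported medians and counts. Without the 12 intervals that overlap another protein-coding gene, the median of the assembly factors was 5.70 FPKM in place of 16.8 and that of import genes 24.9 in place of 13.9. With a floor of 5 FPKM the assembly median stood at the 39.6 percentile of the rows in place of 61.1. In the 150-base window that ends 50 bases after the start, 0 of 55 member promoters held the interferon element core. The median over all members was 28.7 to 35.6 FPKM under the settings tried, and 48 to 55 family genes were listed. Matching by accession added Mrps23, whose accessions share a row with Cuedc1 at 26.1 FPKM.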

Other observations

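The place of the members in the row order of the table was looked at after the values had been seen. Locus numbers rise without a break over the first 2406 rows (49.1%), and what sets this order was not stated. Of the 54 members 16 (29.6%) stood in this first stretch, against 49.3% of the other rows. Among them were 7 of 18 mitoribosomal genes, 3 of 17 respiratory subunit genes (Atp5c1, Ndufa3 and Ndufa6), 3 of 9 assembly factors (Cox17, Cox18 and Sdhaf1), 3 of 7 import genes (Tomm70a, Tomm5 and Timm10b) and 0 of 3 coenzyme Q genes. The mitoribosomal genes were Mrpl28, Mrpl34, Mrpl39, Mrpl42, Mrpl57, Mrps7 and Mrps36. Cox17 and Ndufa3, at 779.7 and 341 FPKM, stood in it, while Atp5k and Uqcrh, at 531 and 329 FPKM, did not. What the order reflects was not tested.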
